A study of Mus musculus with 4 samples.

Results

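The glutathione, thioredoxin and NRF2 genes of the liver expression table were taken by symbol: the glutathione transferases (Gsta, Gstk, Gstm, Gsto, Gstp, Gstt and Gstz), the glutathione peroxidases (Gpx), the peroxiredoxins (Prdx), all genes whose symbol starts with Txn, and Gclc, Gclm, Gss, Gsr, Hmox1, Srxn1, Nfe2l2, Keap1, Sod1 and Sod2. The rule used names and no measured value, and it found 59 of the 15500 listed genes. RNA-seq was made of samples labelled as liver of Kunming mice in 4 conditions, with 1 library for each. Vehicle mice received chow with 1.5% (w/w) linoleic acid, and CLA mice received chow with 1.5% conjugated linoleic acid, a mixture of c9t11 and t10c12 isomers. GW6471 mice received the linoleic acid diet and a daily intraperitoneal injection of 20 mg per kg of the PPARα antagonist GW6471. CLA+GW6471 mice received the CLA diet with that injection, and their library is also called here the one with both. All animals were wild type, the labels state 6 mice per group and 28 days of CLA feeding, and whether a library holds 1 mouse or a pool is not stated. For the Vehicle and CLA groups the methods give male mice bought at 5 weeks of age and livers taken at zeitgeber time 8. For the groups with GW6471 these details were not found in the methods.

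Glutathione is a small peptide that donates electrons to detoxify peroxides and that transferases attach to reactive compounds. Thioredoxin and its reductase form the parallel system for protein disulfides and feed the peroxiredoxins. The transcription factor NRF2, encoded by Nfe2l2, is held in the cytoplasm and directed to degradation by KEAP1. On oxidative or electrophilic stress NRF2 escapes this control, binds antioxidant response elements with small MAF proteins, and activates many genes of both systems in the liver.

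The authors deposited FPKM, fragments scaled to transcript length and to the mapped total, so levels can be read between genes. Steps between low values put the depth at 18796992 to 19267823 reads per library. Of the 59 genes, 49 had a mean of at least 1 FPKM over the 4 libraries, as did 10355 genes in all. The other 10 stayed at or below 0.75 FPKM in every library: Gpx2, Gpx3, Gpx7, Gsta1, Gsta2, Gstm3, Gstt2, Gstt3, Prdx6b and Txndc2. Gpx2, Gpx7, Gsta1, Gstm3 and Gstt3 were listed at 0 in at least 1 library. The label of liver was checked against 12 hepatocyte markers, of which 11 were listed and 7 had a mean below 1 FPKM. Ttr, Apoh, Cps1, Cyp2e1 and Fga were all below 0.1 FPKM on average, whereas Alb, Trf, Fgb and Hnf4a were well expressed. Of 7 epithelial markers, the keratins Krt8 and Krt18 stood at 451 and 1263 FPKM on average. The others were far lower, with Krt7 at 21.0, Epcam at 8.1, Krt5 at 3.3, Krt19 at 0.14 and Krt14 at 0.04. The 4 endothelial markers were all below 1 FPKM. The low hepatocyte and endothelial markers thus go against the label of whole liver tissue in part. The libraries are called liver here only as they are labelled.

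Differences are given as log2 ratios after adding 0.1 to each FPKM, which makes ratios of low genes too small, and a gene with a mean of at least 1 FPKM was called higher or lower from 1.5-fold. Because each condition is a single library, no replicate error and no test exist, and every statement describes these libraries. The intervals in brackets are 95% counting intervals (exact Clopper-Pearson) from the estimated reads. They cover counting error only, and between CLA and Vehicle 65.7% of 9762 genes lay beyond theirs.

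In the CLA library, both subunits of glutamate-cysteine ligase, glutathione reductase and many glutathione transferases were higher than in Vehicle, and none of the 49 genes was called lower. Of them, 12 were called higher, or 24.5%, where 7.3% of all tested genes were called higher and 4.95% lower. The median log2 ratio was 0.24 over the 49 genes, 0.24 over all 59, and -0.0071 over all tested genes. The called genes were Gclc, Gclm, Gsr, Gsta3, Gsta4, Gstm1, Gstm5, Gstm6, Gstm7, Gstp2, Gstt1 and Prdx6. CLA was the highest of the 4 libraries for 36 of the 49 genes, a place it held for 34.7% of all tested genes. CLA and GW6471 were both above the other libraries for 25 of the 49 genes (51.0%) and both below them for 10 (20.4%), a split also common among all tested genes, at 30.2% and 31.8%. The smallest ratio among the called genes was 1.50-fold, for Gstp2, whose call ended with a pseudocount of 1 or with scaling to a common FPKM sum. Among genes not called, the largest upward ratio was 1.44-fold, for Gstp1, and the largest downward ratio 1.45-fold, for Gsto2.

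In the GW6471 library, 7 of the 49 genes were called higher than in Vehicle (14.3%, against 3.28% of all tested genes). These were Gclc, Gsr, Gsta3, Gsta4, Gstm1, Gstt1 and Hmox1. Gstk1 was called lower, though not with a pseudocount of 1, which is 2.04% of the genes against 2.1% of all tested genes. The median log2 ratio was 0.055 over the 49 genes and -0.0041 over all tested genes. This comparison shares the Vehicle library with that of CLA.

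In CLA+GW6471, by contrast, most of these transcripts stood near or below Vehicle. Against CLA, 14 of the 49 genes were called lower (28.6%, against 9.15% of all tested genes) and only Gsto2, though not with a pseudocount of 1, was called higher (6.84% of all tested genes). Against GW6471, 7 were called lower (14.3%, against 3.88%) and 0 higher (2.81%), and with a filter at a mean of 5 FPKM the 7 became 4. The 7 lower genes were Gclc, Gsta3, Gsta4, Gstm1, Gstm6, Gstm7 and Gstp2, of which 5 are alpha or mu transferases. The median log2 ratios were -0.28 against CLA and -0.076 against GW6471, with 0.0090 and 0.0041 over all tested genes. The CLA library enters both the first and the third comparison.

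With the limit at 2-fold, 5 of the 49 genes were higher in CLA than in Vehicle (1.79% of all tested genes) and 0 lower (0.744%), and the 5 were Gsta3, Gstm7, Gsta4, Gstm1 and Gstt1. In GW6471 against Vehicle, Gsta3 was higher (0.56% of all tested genes) and 0 lower (0.309%). In CLA+GW6471, 8 were lower than in CLA (2.67%) and 0 higher (1.27%), and against GW6471 Gsta3, Gsta4, Gstm6 and Gstm7 were lower (0.802%) and 0 higher (0.357%).

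Some hepatocyte transcripts, mainly Alb, Trf and Fgb, moved with these genes, and others did not. The 11 listed hepatocyte markers summed to 1002.5 FPKM in Vehicle, 1860.86 in CLA, 1519.1 in GW6471 and 928.84 with both, which is also the order of libraries for Gclc and Gsta4. Alb made up most of the sum, with 679.53, 1321.55, 1067.32 and 620.17 FPKM, whereas Hnf4a went the other way, with 54.53 FPKM in Vehicle, 47.31 in CLA, 47.23 in GW6471 and 51.84 with both. Of the 11 markers, 7 had a mean below 1 FPKM and add little to the sum. The macrophage markers, with 3 of 6 listed, summed to between 24.16 and 36.63 FPKM, the highest in CLA. Those of stellate cells or fibroblasts, with 6 of 6 listed, summed to between 1148.57 and 1507.15 FPKM, nearly all from Dcn, with Col3a1, Lum and Pdgfrb near 0. The 7 epithelial markers summed to between 1602.99 and 1883.91 FPKM and were lowest in GW6471. Nearly all of this sum came from Krt18 and Krt8, with Krt19 and Krt14 near 0. The part of these cells in the ratios given here was not tested, and in a bulk sample more cells of a type and more RNA per cell cannot be told apart.

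**Figure D1:**
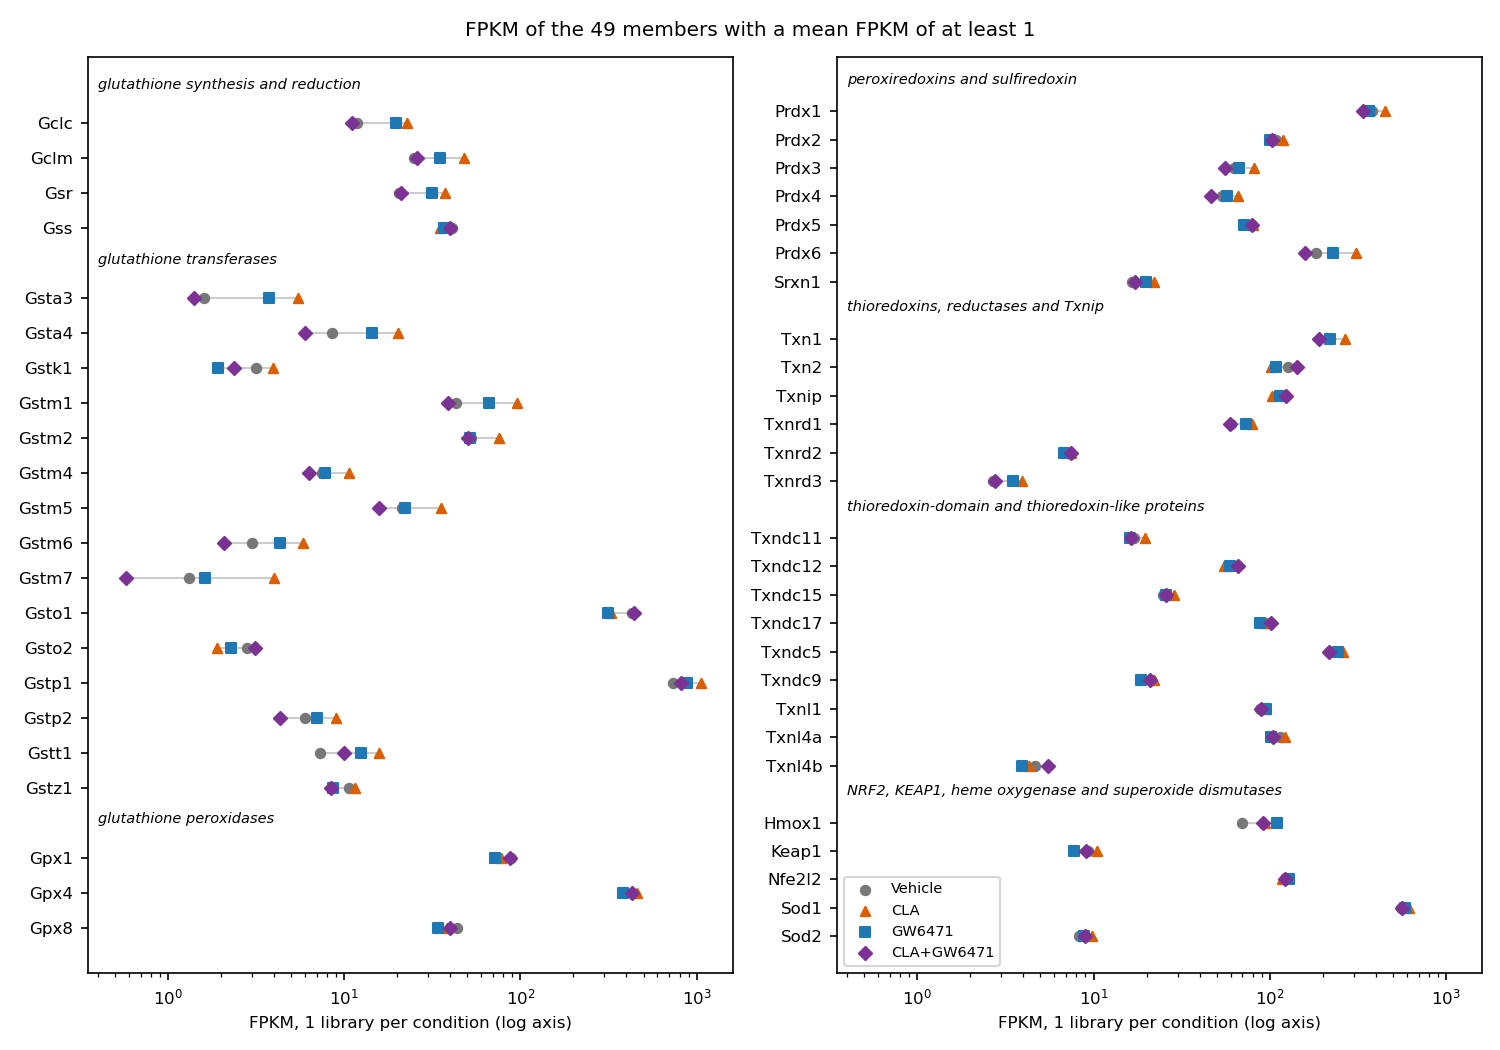
FPKM (log axis) of the 49 genes with a mean of at least 1 FPKM, grouped by role, with 1 point for each of the 4 libraries and a grey line from the lowest to the highest. In Gclc, Gclm, Gsr and most alpha and mu transferases the CLA and GW6471 points lie to the right of Vehicle and CLA+GW6471, while Gss, Nfe2l2 and Sod1 cluster closely.

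Glutathione synthesis starts with glutamate-cysteine ligase, whose catalytic subunit is encoded by Gclc (chr9:77602342-77642292, mm9) and whose modifier subunit is encoded by Gclm (chr3:121948475-121972902). Gclc had 11.85 FPKM in Vehicle, 22.76 in CLA, 19.67 in GW6471 and 11.13 with both. CLA and GW6471 were thus the high libraries, with a log2 ratio to Vehicle of 0.94 (0.81 to 1.06) for CLA and of 0.73 (0.60 to 0.86) for GW6471. The log2 ratio of CLA+GW6471 to CLA was -1.025 (-1.154 to -0.898). Gclm had 25.04 FPKM in Vehicle, 47.86 in CLA, 35.00 in GW6471 and 25.96 with both. Its log2 ratio of CLA to Vehicle was 0.93 (0.859 to 1.005), close to that of the catalytic subunit. That of GW6471 to Vehicle, at 0.48 (0.40 to 0.56), stayed below the limit for a call.

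Glutathione synthetase, encoded by Gss, adds the last residue of the peptide. Gss had 40.73 FPKM in Vehicle, 35.20 in CLA, 36.76 in GW6471 and 40.13 with both. It was not called in any comparison, and unlike the ligase subunits it was lower in CLA and GW6471 than in the other libraries, with a log2 ratio of CLA to Vehicle of -0.21 (-0.32 to -0.10). Glutathione reductase, encoded by Gsr, returns oxidized glutathione to the reduced form. Gsr had 20.47 FPKM in Vehicle, 37.50 in CLA, 31.54 in GW6471 and 21.01 with both. Its log2 ratio to Vehicle was 0.87 (0.76 to 0.98) for CLA and 0.62 (0.51 to 0.74) for GW6471, so it followed the ligase and not the synthetase.

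The promoters of 50 of the 59 genes were in the RefSeq table (GRCm38.p6; 250 bases before to 50 after the start), Gclc, Gsr, Gsta4, Gstt2, Hmox1, Prdx6, Prdx6b, Txnl1 and Txnl4a being the others. The core of the antioxidant response element, searched on both strands as TGACNNNGC, was in 12 of these 50 genes (24.0%), against 14.0% of the 27025 genes in the table and 17.2% of the 8414 tested genes with a promoter. Counted by promoter, since a gene can have several, it was in 12 of 67 windows of these genes (17.9%), in 14.4% of those of the tested genes and in 12.4% of all 32851 windows. Among the 12 genes called higher in CLA, 8 had a promoter and Gclm, Gsta3, Gstm5 and Gstm7 held the core. The match of Prdx1 overlapped a TGANTCA motif, which is the AP-1 type of site, and those of the other 11 genes did not. The following sequences are shown because they carry this core in genes of the pathway that were called higher in CLA (Gclm, Gsta3, Gstm5) or that recycle peroxides and disulfides (Prdx1, Txnrd1). They read 5′ to 3′ on the gene's strand, with the core, or its reverse complement, in capitals. For Gclm and Gsta3 the 250 bases before the start are given (chr3:122245307-122245556 and chr1:21240335-21240584, both plus strand). For the others the core is given with 20 bases on either side (Gstm5 at chr3:107895792-107895840, Prdx1 at chr4:116685446-116685494 and Txnrd1 at chr10:82859094-82859142, all plus strand).
Gclm: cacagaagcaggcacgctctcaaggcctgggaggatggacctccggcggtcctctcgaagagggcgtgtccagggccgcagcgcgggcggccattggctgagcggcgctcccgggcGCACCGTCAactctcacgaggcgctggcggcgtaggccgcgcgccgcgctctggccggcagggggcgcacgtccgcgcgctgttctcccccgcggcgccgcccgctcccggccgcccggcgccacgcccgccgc
Gsta3: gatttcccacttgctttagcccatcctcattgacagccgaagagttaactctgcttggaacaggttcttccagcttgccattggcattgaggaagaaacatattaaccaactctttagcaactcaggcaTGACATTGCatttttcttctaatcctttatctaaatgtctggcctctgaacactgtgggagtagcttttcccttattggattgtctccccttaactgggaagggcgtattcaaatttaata
Gstm5: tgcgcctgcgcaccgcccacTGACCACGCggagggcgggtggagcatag
Prdx1: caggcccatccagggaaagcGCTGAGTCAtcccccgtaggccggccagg
Txnrd1: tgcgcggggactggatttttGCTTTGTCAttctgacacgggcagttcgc
The core began 134 bases before the start in Gclm, 121 in Gsta3, 42 in Gstm5, 133 in Prdx1 and 92 in Txnrd1. A match of letters does not show binding, and the 4 libraries hold no measure of it.

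The glutathione transferases attach glutathione to electrophiles, and 15 of the 20 listed genes had a mean of at least 1 FPKM. In CLA against Vehicle, 8 of the 15 were called higher and 0 lower (7.3% and 4.95% of all tested genes), with a median log2 ratio of 0.59 (-0.0071 over all tested genes). In GW6471 against Vehicle, 4 were called higher and 1 lower (3.28% and 2.1% of all tested genes), with a median of 0.23. In CLA+GW6471, 10 were called lower and 1 higher against CLA (9.15% and 6.84% of all tested genes), and 6 lower and 0 higher against GW6471 (3.88% and 2.81%).

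Summed by class, CLA stood at 2.53 times Vehicle for alpha, 2.03 for theta and 1.77 for mu. The largest ratios of single genes in CLA against Vehicle were in the alpha and mu classes. All 8 tested genes of these classes were above Vehicle in CLA, with a median log2 ratio of 1.04, and all 8 were below GW6471 in CLA+GW6471, with a median of -0.90. Gsta3, an alpha-class transferase, had 1.61 FPKM in Vehicle, 5.46 in CLA, 3.74 in GW6471 and 1.41 with both, and its promoter is the second printed above. Its log2 ratio of CLA to Vehicle was 1.70 (1.17 to 2.25), the largest of the 49 genes, and rested on few reads. Gsta4, which acts on the lipid peroxidation product 4-hydroxynonenal, had 8.52 FPKM in Vehicle, 20.11 in CLA, 14.46 in GW6471 and 5.97 with both. For Gsta4 the log2 ratio to Vehicle was 1.23 (0.96 to 1.51) for CLA and 0.76 (0.47 to 1.05) for GW6471, while CLA+GW6471 was the lowest library. Gsta1 and Gsta2, at most 0.37 FPKM, shared 89.7% and 65.4% of their 50-base stretches with other coding transcripts, and their levels are uncertain.

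The 7 listed mu genes lie within 149 kb on chromosome 3 (mm9), in the order Gstm5, Gstm7, Gstm6, Gstm3, Gstm2, Gstm1 and Gstm4. Gstm1, the main mu transferase here together with Gstm2, had 43.25 FPKM in Vehicle, 95.89 in CLA, 66.15 in GW6471 and 38.80 with both. Its log2 ratio to Vehicle was 1.15 (1.04 to 1.25) for CLA and 0.61 (0.50 to 0.72) for GW6471, and 14.8% of its 50-base stretches occur in other coding transcripts. Gstm5 had 21.41 FPKM in Vehicle, 35.49 in CLA, 22.24 in GW6471 and 15.77 with both. Here only CLA was high, with log2 ratios to Vehicle of 0.73 (0.55 to 0.90) for CLA and 0.055 (-0.14 to 0.25) for GW6471.

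Of the other mu genes, Gstm7, Gstm6, Gstm4 and Gstm2 were also highest in CLA, at different sizes, while Gstm3 was listed at 0 in Vehicle and CLA and reached at most 0.13 FPKM. Gstm7 had 1.31 FPKM in Vehicle, 3.98 in CLA, 1.62 in GW6471 and 0.58 with both, a log2 ratio of CLA to Vehicle of 1.53 (0.99 to 2.09). Gstm6 had 3.01, 5.87, 4.33 and 2.07 FPKM in the same order of libraries, with a log2 ratio of CLA to Vehicle of 0.94 (0.52 to 1.38). For Gstm4 the values were 7.46, 10.62, 7.75 and 6.32 FPKM, and Gstm4 was called only in CLA+GW6471 against CLA, at -0.74 (-0.99 to -0.49). Gstm2, at 52.15 FPKM in Vehicle and 75.32 in CLA, missed the limit with a ratio of 0.53 (0.41 to 0.64). The class as a whole summed to 128.59 FPKM in Vehicle, 227.17 in CLA, 154.32 in GW6471 and 113.95 with both.

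**Figure D2:**
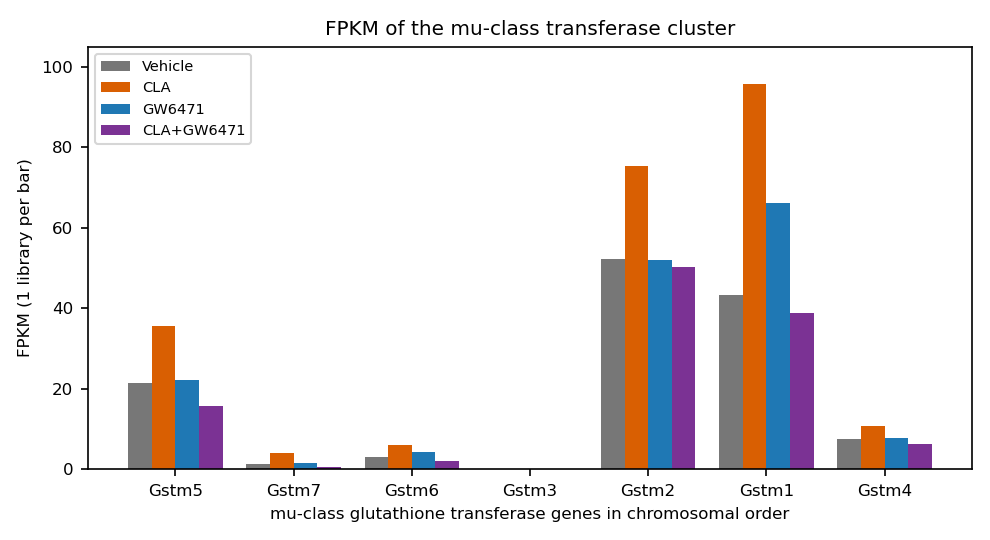
FPKM of the 7 mu-class glutathione transferase genes, in their order along the chromosome, with 1 bar per library from 0. CLA is the tallest bar for every gene except Gstm3, which stayed at or below 0.13 FPKM, and Gstm1 reached 95.89 FPKM in CLA against 43.25 in Vehicle.

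The pi and theta classes pointed the same way and the omega class the other way. Gstp1, a pi-class transferase, was the most abundant gene of the whole set. It had 733.81 FPKM in Vehicle, 1059.97 in CLA, 882.18 in GW6471 and 813.60 with both, between 55.1% and 63.0% of the summed transferase FPKM. Its log2 ratio of CLA to Vehicle was 0.53 (0.49 to 0.57), below the limit for a call. Gstp2, which lies beside it on chromosome 19 and shares 67.9% of its 50-base stretches with it, had 5.99, 9.05, 7.06 and 4.33 FPKM in Vehicle, CLA, GW6471 and CLA+GW6471. Reads of Gstp1 could be counted for Gstp2, so this call is uncertain.

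Gstt1, a theta-class transferase that metabolizes halogenated compounds, had 7.29 FPKM in Vehicle, 15.80 in CLA, 12.53 in GW6471 and 10 with both. All treated libraries were above Vehicle, with a log2 ratio of 1.10 (0.83 to 1.39) for CLA and 0.77 (0.48 to 1.07) for GW6471. Gsto1, an omega-class enzyme with thiol transferase activity, had 427.54 FPKM in Vehicle, 326.74 in CLA, 314.98 in GW6471 and 441.68 with both. CLA and GW6471, the high libraries of most transferases, were thus the low ones here, with a log2 ratio of CLA to Vehicle of -0.39 (-0.43 to -0.34), not called.

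Its paralog Gsto2 was likewise lower in CLA and GW6471, at 2.82, 1.91, 2.27 and 3.12 FPKM in Vehicle, CLA, GW6471 and the library with both, and was called higher in CLA+GW6471 than in CLA, at 0.68 (0.17 to 1.20). Gstk1, the kappa-class enzyme of mitochondria and peroxisomes, had 3.16, 3.97, 1.93 and 2.38 FPKM. It was low in both libraries with GW6471, with a log2 ratio of GW6471 to Vehicle of -0.68 (-1.31 to -0.069). With a pseudocount of 1 both of these calls ended, at 0.50 for Gsto2 and -0.51 for Gstk1. Gstz1, a zeta-class enzyme of tyrosine breakdown, ran from 8.48 to 11.51 FPKM and was not called.

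Glutathione peroxidases are selenoenzymes for the most part. The 3 tested genes were called in none of the comparisons, which for so few genes is near the share of all tested genes (7.3% higher and 4.95% lower in CLA against Vehicle), with log2 ratios between -0.20 and 0.076 for CLA against Vehicle and between -0.35 and -0.18 for GW6471 against Vehicle. Gpx4, which reduces lipid hydroperoxides in membranes, had 432.67 FPKM in Vehicle, 456.17 in CLA, 380.66 in GW6471 and 427.40 with both. Gpx1, the cytosolic peroxidase, had 88.87, 77.25, 72.18 and 87.19 FPKM in the same order. GW6471 was the lowest library for both.

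Peroxiredoxins reduce peroxides with thioredoxin or, for Prdx6, with glutathione. All 7 tested genes of this group, sulfiredoxin included, were above Vehicle in CLA and below CLA in CLA+GW6471, with a median log2 ratio of 0.30 for the former. Of all 10355 tested genes, 5063 were above Vehicle in CLA and 5078 below CLA in CLA+GW6471. Both comparisons use the same CLA library, so these directions are not independent. How many of all tested genes met both was not counted. Prdx6 was the 1 called gene of the 7, higher in CLA than in Vehicle (7.3% of all tested genes) and lower in CLA+GW6471 than in CLA (9.15%). It had 183.41 FPKM in Vehicle, 308.71 in CLA, 228.77 in GW6471 and 158.57 with both, with a log2 ratio of CLA to Vehicle of 0.75 (0.71 to 0.79) and of CLA+GW6471 to CLA of -0.961 (-1.002 to -0.920). The thioredoxin-dependent Prdx1 had 381.14, 451.41, 365.59 and 336.08 FPKM, a narrower range, with a ratio of CLA to Vehicle of 0.24 (0.21 to 0.27). Srxn1, the sulfiredoxin that restores overoxidized peroxiredoxins, had 16.58, 22.15, 19.74 and 17.28 FPKM and a ratio of 0.42 (0.29 to 0.54).

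None of the 6 tested genes of the thioredoxin system was called in any comparison, a count near the share of all tested genes (7.3% higher and 4.95% lower in CLA against Vehicle, 3.28% and 2.1% in GW6471 against Vehicle). The cytosolic Txn1 and Txnrd1 were highest in CLA. Txn1 had 220.45 FPKM in Vehicle, 265.57 in CLA, 220.87 in GW6471 and 191.29 with both, and the reductase Txnrd1 had 59.99, 79.08, 73.47 and 59.65 FPKM. The log2 ratios of CLA to Vehicle were 0.27 (0.21 to 0.33) for Txn1 and 0.40 (0.34 to 0.46) for Txnrd1. The mitochondrial thioredoxin Txn2 went the other way, with 126.67 FPKM in Vehicle, 102.08 in CLA, 108.44 in GW6471 and 142.61 with both, a log2 ratio of -0.31 (-0.37 to -0.25). Its partner, the mitochondrial reductase Txnrd2, ran from 6.78 to 7.45 FPKM.

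Txnip, an inhibitor that binds thioredoxin, had 116.91, 102.85, 114.29 and 123.18 FPKM in Vehicle, CLA, GW6471 and CLA+GW6471. CLA was its lowest library, with a log2 ratio of -0.18 (-0.24 to -0.13). The 9 tested genes with a thioredoxin domain or a thioredoxin-like name, which include proteins of the endoplasmic reticulum and of the spliceosome, had log2 ratios of CLA to Vehicle between -0.12 and 0.28. Txndc5, the most abundant of them and a disulfide isomerase of the endoplasmic reticulum, had 215.48, 260.70, 244.16 and 217.79 FPKM.

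The transcript of NRF2 itself varied little. Nfe2l2 had 121.83 FPKM in Vehicle, 118.06 in CLA, 127.89 in GW6471 and 121.35 with both, so that the highest library exceeded the lowest 1.08-fold. Keap1 had 9.29, 10.46, 7.73 and 9.03 FPKM and was not called in any comparison. NRF2 activity is set largely by protein stability, which these libraries do not measure. Hmox1, the heme-degrading oxygenase, had 69.62 FPKM in Vehicle, 94.27 in CLA, 109.64 in GW6471 and 91.40 with both. Unlike the ligase genes, Hmox1 was highest in GW6471, with a log2 ratio to Vehicle of 0.65 (0.58 to 0.73), and all 3 treated libraries were above Vehicle.

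Superoxide dismutases convert superoxide to hydrogen peroxide. The cytosolic Sod1 had 553.86, 617.59, 582.72 and 564.36 FPKM in Vehicle, CLA, GW6471 and CLA+GW6471, with a log2 ratio of CLA to Vehicle of 0.16 (0.11 to 0.20). For the mitochondrial Sod2 the values were 8.23, 9.77, 8.83 and 8.89 FPKM. Neither was called in any comparison.

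Of further NRF2 target genes outside the symbol rule, 23 were listed and tested. This list and those below were chosen with earlier results of these data known, so they are no independent check. In CLA against Vehicle, 10 of the 23 were called higher and 1 lower (7.3% and 4.95% of all tested genes), with a median log2 ratio of 0.54 (-0.0071 over all tested genes). In GW6471 against Vehicle, Nqo1, Abcc3, Slc7a11 and Ugdh were called higher and 0 lower (3.28% and 2.1% of all tested genes), with a median of 0.36 (-0.0041 over all tested genes). Against GW6471, CLA+GW6471 had these 4 genes called lower and Osgin1 called higher (3.88% and 2.81% of all tested genes), with a median of -0.36 (0.0041 over all tested genes). With a pseudocount of 1 the calls of Nqo1 in these comparisons with GW6471 ended, at 0.56 against Vehicle and -0.37 for CLA+GW6471. Against CLA it had 12 called lower and Osgin1 called higher (9.15% and 6.84% of all tested genes). The GW6471 library enters the comparison with Vehicle and the one with CLA+GW6471, and the CLA library likewise enters a pair of them.

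Nqo1, the quinone reductase often used as a readout of NRF2, was low in level, with 0.72 FPKM in Vehicle, 2.67 in CLA, 1.53 in GW6471 and 0.96 with both. Its log2 ratio of CLA to Vehicle was 1.76 (1.11 to 2.43), and the counting interval of its ratio of CLA+GW6471 to GW6471, -0.62 (-1.28 to 0.031), held 0. Slc7a11, the cystine importer that feeds glutathione synthesis, had 28.08, 44.62, 52.65 and 24.51 FPKM. Like Hmox1 it was highest in GW6471, with a log2 ratio to Vehicle of 0.67 (0.61 to 0.72) for CLA and 0.90 (0.85 to 0.95) for GW6471. Ugdh, which makes the sugar donor of glucuronidation, had 142.49, 282.28, 224.27 and 124.47 FPKM and a log2 ratio of CLA to Vehicle of 0.99 (0.94 to 1.03). Osgin1, a stress-induced growth inhibitor named here after its value was seen, was the exception within this list of further targets. It had 105.65 FPKM in Vehicle, 56.74 in CLA, 73.51 in GW6471 and 120.15 with both.

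**Figure D3:**
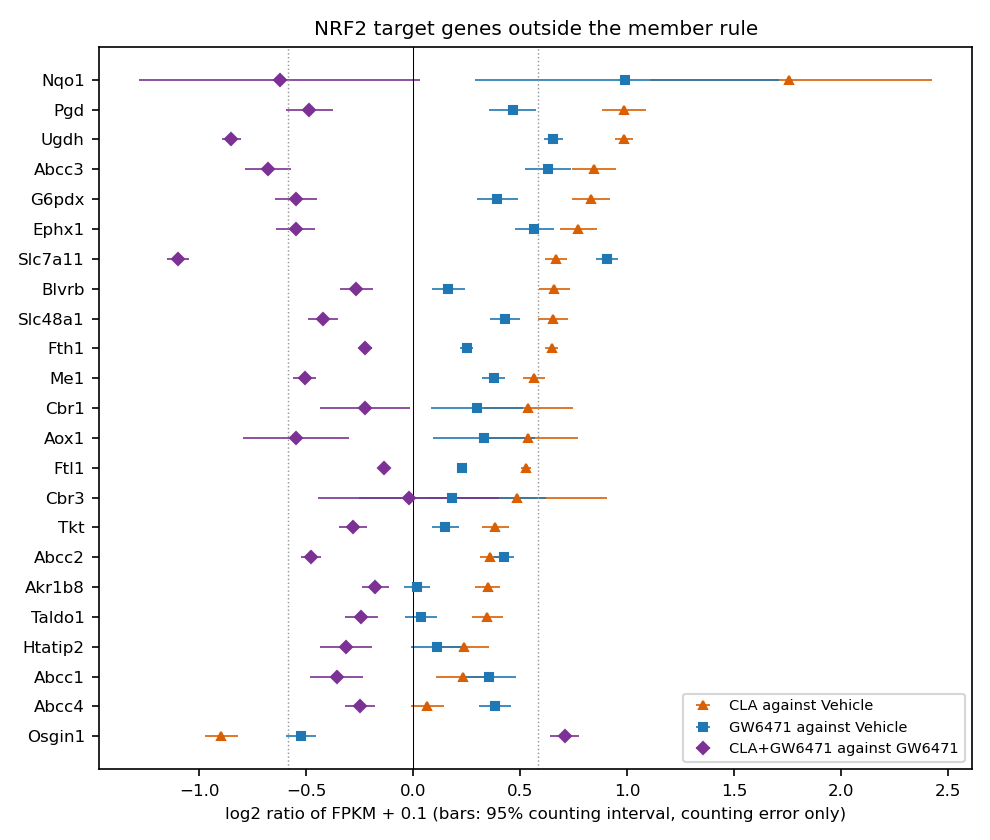
Log2 ratios of FPKM + 0.1 for 23 NRF2 target genes outside the symbol rule in 3 comparisons, with 95% counting intervals as bars and dotted lines at 1.5-fold. For 22 genes CLA and GW6471 lie above Vehicle, and for 22 genes CLA+GW6471 lies below GW6471. Osgin1 runs opposite to the other genes shown, with a ratio of CLA to Vehicle of -0.90. Genes listed as regulators and partners of NRF2, such as Sqstm1 and Mafk, are not shown.

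Regulators and partners of NRF2 were called in CLA against Vehicle in 2 of 10 cases, both lower, where 4.95% of all tested genes were called lower and 7.3% higher. Mafk, a small MAF partner, had 36.79 FPKM in Vehicle, 22.05 in CLA, 26.95 in GW6471 and 36.77 with both, a log2 ratio of CLA to Vehicle of -0.74 (-0.84 to -0.64). Sqstm1, the autophagy receptor p62 that binds KEAP1, had 1467.61, 902.05, 1104.12 and 1508.29 FPKM and a ratio of -0.70 (-0.72 to -0.69). Both were the lowest in CLA and were called higher in CLA+GW6471 than in CLA (6.84% of all tested genes). That comparison uses the same CLA library. Btrc, an adaptor of ubiquitin ligases that act on NRF2, had 4.58, 6.11, 5.17 and 4.21 FPKM and was not called.

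Of 27 further genes of glutathione use, turnover and cysteine supply, 25 were listed and 21 tested. In CLA against Vehicle, Mgst1, Mgst3, Ggt6 and Esd were called higher (4 of 21 genes, against 7.3% of all tested genes) and Hpgds lower (1 of 21, about the 4.95% of all tested genes), with a median log2 ratio of 0.13. Mgst1, a membrane-bound transferase, had 36.23 FPKM in Vehicle, 66.89 in CLA, 50.70 in GW6471 and 39.47 with both. Hpgds, the sigma-class transferase that makes prostaglandin D2, had 13.70, 7.15, 7.38 and 13.51 FPKM, so that CLA and GW6471 were both low, with log2 ratios to Vehicle of -0.93 (-1.09 to -0.77) and -0.88 (-1.04 to -0.72). Cth, which makes cysteine from cystathionine, had 33.24, 31.94, 30.35 and 17.66 FPKM and was low in CLA+GW6471 only.

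Among 11 other antioxidant genes tested, Cat, Sesn1 and Sepp1 were called higher in CLA than in Vehicle and 0 lower (7.3% and 4.95% of all tested genes), with a median log2 ratio of 0.20. Catalase, encoded by Cat and located in peroxisomes, had 14.64 FPKM in Vehicle, 31.93 in CLA, 25.53 in GW6471 and 17.21 with both. Its log2 ratio to Vehicle was 1.12 (0.99 to 1.25) for CLA and 0.80 (0.67 to 0.93) for GW6471. The sestrin Sesn1 had 1.69, 4.51, 2.66 and 1.49 FPKM, again with CLA and GW6471 above the other libraries, and with a pseudocount of 1 it was no longer called in GW6471 against Vehicle or in CLA+GW6471 against GW6471. The selenoprotein Sepw1 had 85.34, 65.90, 60.89 and 113.99 FPKM and was called higher in CLA+GW6471 than in either single treatment.

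The CLA ratio without GW6471 and the CLA ratio with it share no library. Their signs were opposite for 38 of the 49 genes (77.6%), close to the 73.0% of all tested genes, so the reversal was not particular to this set. All 12 genes called higher in CLA against Vehicle had a ratio below 0 in CLA+GW6471 against GW6471, as did 712 of the 756 such genes in all. Of these 12 genes, 7 were called lower there, and of the 756, 309. Gstk1, Keap1 and Gpx4 were among the genes above 0 in both.

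**Figure D4:**
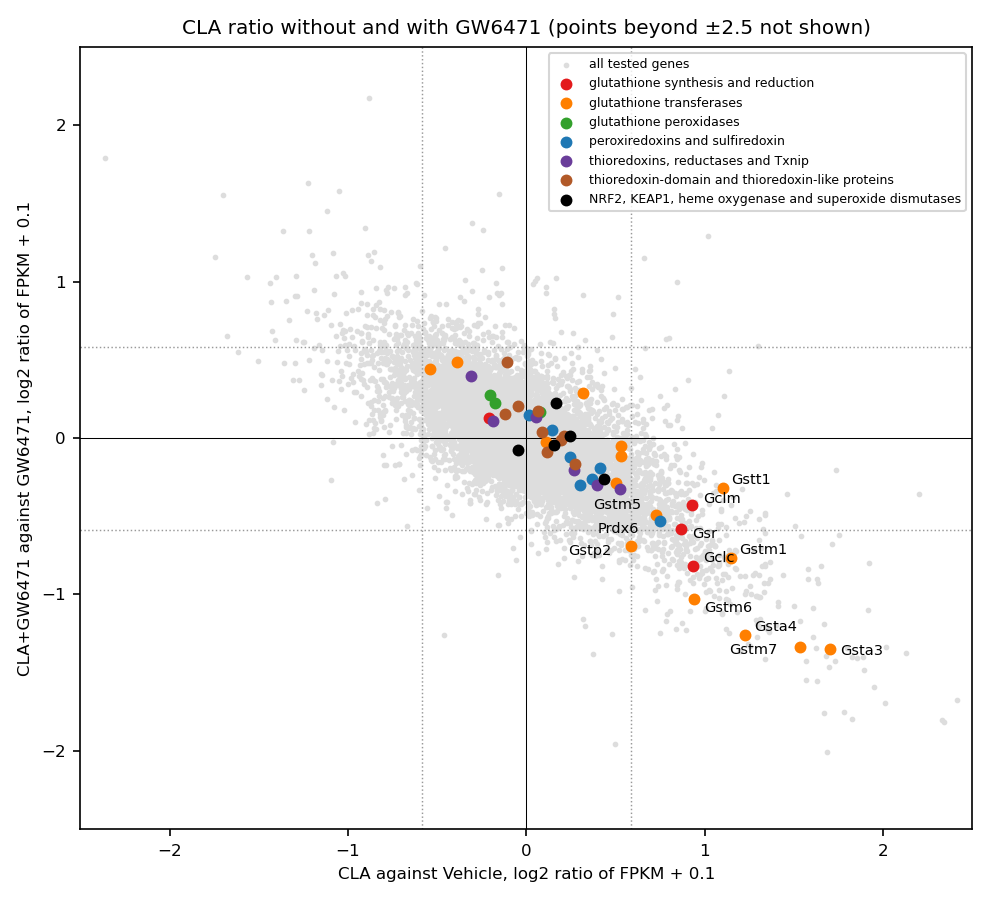
Log2 ratio of CLA to Vehicle (x axis) against that of CLA+GW6471 to GW6471 (y axis), both of FPKM + 0.1, with 1 point per gene, the 49 genes colored by role, all tested genes in grey and dotted lines at 1.5-fold. The 12 named genes lie at the lower right, from Gstp2 at 0.59 and -0.69 to Gsta3 at 1.70 and -1.35.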

How the data were processed

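Liver RNA was sequenced in 4 conditions, with 1 library each, and samples were grouped by their treatment label. According to the methods and the submitters' processing notes, the authors mapped reads to mm9 with BWA and Bowtie and quantified them with Cufflinks (versions not given in the sources used here). They deposited FPKM with 2 decimals in 1 table of 15500 genes. The table names no unit, which was taken from the methods and a supplementary sheet. No count model was possible. The deposited FPKM were not rescaled, and 0.1 was added ahead of the log2 step. Depth was estimated from the steps of low FPKM in 544 genes under 1000 nt with 1 transcript. Counting intervals used these estimates and the longest coding transcript in GENCODE vM1, found for all 59 genes. These intervals are rough and leave out all error except that of counting. Near-identical copies were sought as 50-base stretches shared with other coding transcripts, and processed pseudogenes were not searched. Calculations were run in Python 3.11.15 (scipy 1.17.1, pandas 2.3.3, numpy 2.4.6) and plots in matplotlib 3.10.9.

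Both single treatments were compared with Vehicle, and CLA+GW6471 with each single treatment. The text names every member called in at least 1 comparison, the most abundant member of each role, members fixed by name, Nqo1, Cat and the 3 genes with the largest ratio of each further list. Gstm2, Gsto1, Gstz1 and genes that make up small counts were named after their values were seen. The members and lists were chosen with earlier results of these data known. The alternatives were another pseudocount, filter, scaling or fold, and narrower sets of members.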

Additional observations from a re-analysis of the deposited data

Results flagged for a closer look

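For 7 genes the ratio of CLA passed 1.5-fold upward without GW6471 and downward with it. Among all tested genes called higher in CLA against Vehicle, 309 of 756 did the same, and 73.0% of all tested genes had opposite signs in both ratios, so this reversal is not particular to these genes. These opposite directions were not tested, since each condition has 1 library. On the log2 scale, the ratio without GW6471 and the ratio with it were 0.94 and -0.82 for Gclc, 1.70 and -1.35 for Gsta3, and 1.23 and -1.26 for Gsta4. They were 1.15 and -0.77 for Gstm1, 0.94 and -1.03 for Gstm6, and 1.53 and -1.34 for Gstm7. For Gstp2, whose reads cannot be told apart from those of Gstp1 over most of its length, they were 0.59 and -0.69.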

How the results depend on the processing

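No paired analysis was possible because each condition has 1 library. Of 116 values of counts and medians under an alternative, 98 stayed within 1.5 times the count or 0.1 of the median, and 0 reversed. With a pseudocount of 1, the genes called lower in GW6471 against Vehicle and higher in CLA+GW6471 against CLA went from 1 to 0 each, as with a filter at 5 FPKM or a 2-fold limit. The filter at 5 FPKM left 4 genes lower in CLA+GW6471 against GW6471. With no filter, 2 genes were called higher in CLA+GW6471 against CLA (Gsto2 and Gstm3) and 2 against GW6471 (Gpx2 and Txndc2), of which only Gsto2 had a mean of at least 1 FPKM. The 2-fold limit left 5 genes higher in CLA against Vehicle, 1 higher in GW6471 against Vehicle, and 8 and 4 lower in CLA+GW6471 against CLA and GW6471. Without the Txndc and Txnl genes the median in CLA+GW6471 against CLA was -0.43. In an alternative chosen after seeing the data, without the alpha and mu transferases, 6 genes were higher in CLA and 4 in GW6471 against Vehicle (7.3% and 3.28% of all tested genes). In CLA+GW6471, 7 and 2 were then lower against CLA and GW6471 (9.15% and 3.88%). The alpha and mu classes held 8 of the 49 genes and 5 of the 7 called lower against GW6471. The 2 left were Gclc and Gstp2, so few that they are near the share of all tested genes, and Gstp2 is uncertain. Of 704 ratios of single genes under another pseudocount or scaling, 9 lost and 5 gained a call. A pseudocount of 1 ended calls of Gstk1, Gsto2, Gstp2, Nqo1 and Sesn1, scaling to a common FPKM sum ended that of Gstp2 in CLA against Vehicle (0.557), and Gsr, Prdx6 and Cat gained calls in CLA+GW6471 against GW6471. Scaling moved the median of all tested genes by at most 0.065 (log2). Precision is limited by counting for genes near 1 FPKM, such as Gstm7 and Nqo1.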
